A study of Mus musculus with 5 samples.

Results

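The 357 regions described here held peaks in both WT1 lists of M15 cells and were missing from at least 1 of 2 peak lists made in an edited daughter line. They were chosen by merging the peaks of 4 WT1 lists wherever peaks shared at least 1 bp, which gave 455287 regions. Of these, 5688 had a peak in both M15 lists and are called M15 regions below. The 357 members are the M15 regions with a peak in at most 1 of the 2 KTS-minus lists, or 6.28% of all M15 regions (95% Wilson interval 5.68 to 6.94). A peak was present in 1 KTS-minus list at 287 of them and in none at 70. Presence and absence of peaks chose the members, so these counts are a description and carry no test. The M15 requirement matters: without M15 replicate 1 as a condition, 29814 of the 51612 regions with an M15 replicate 2 peak lacked 1 or both KTS-minus lists.

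The lists come from CUT&RUN, in which an antibody on chromatin of permeabilised cells tethers a nuclease that releases the DNA beside the bound protein. M15 cells come from the epithelium of the mouse mesonephros and carry the large T antigen of polyoma virus. From them 2 libraries were made with an antibody against WT1. The same antibody was used on 2 libraries from a derivative edited for the KTS isoforms, whose cell line is labelled KTS- and which carries the same transformation. The labels do not say which isoform that line still makes, whether it is 1 clone, or whether replicates are separate cultures. The series has 5 samples, and the IgG library of M15 cells was not analysed here. A site below means a region with listed peaks, and WT1 binding there was not checked against IgG.

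WT1 binds DNA through zinc fingers and is needed for formation of the kidney and gonads. Splicing decides whether the residues lysine, threonine and serine (KTS) stand in the linker before the last finger. The form without KTS is regarded as the stronger sequence-specific DNA binder, and the form with KTS has been linked to RNA. The mesonephros, from which M15 cells derive, is the embryonic kidney next to which the gonad forms. Genes at the regions were not assigned here, and no sequence was read, because the gene and promoter tables at hand belong to a later mouse build than mm9, the build of the lists.

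The libraries were far from equal, and every absence must be read beside this. M15 replicate 1 listed 6440 peaks and replicate 2 listed 60925. KTS-minus replicate 1 listed 310999 peaks over 434.1 Mb and replicate 2 listed 244428 over 199.5 Mb. A peak's signal is the authors' coverage value, which has no common scale between lists, so strength is given as the position of a region's best peak among the 5688 M15 regions in 1 list. Read depth is unknown. Regions are not replicates, so nothing was tested over regions, and 2 libraries against 2 cannot go below p = 0.333 in an exact permutation test. Intervals cover counting error only.

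KTS-minus replicate 1 lacked a peak at 236 M15 regions (4.15%) and replicate 2 at 191 (3.36%). The first list was thus absent more often, although it was the longer and covered the larger stretch of sequence. At 166 regions only replicate 1 lacked the peak, at 121 only replicate 2, and at 70 (1.23%) both did. Without M15 replicate 1 as a condition, 4704 of 51612 regions (9.11%) lacked only replicate 1, 10881 (21.1%) only replicate 2 and 14229 (27.6%) both. Without M15 replicate 2 as a condition 186 of 6007 regions (3.10%) lacked both. With KTS-minus replicate 1 left out, 223 of 5931 (3.76%) lacked the remaining list, and with replicate 2 left out 242 of 5737 (4.22%) did. The absences coincided often. Of the 236 regions without a replicate 1 peak, 29.7% also lacked replicate 2, against 2.22% of the 5452 regions that had a replicate 1 peak. Without chromosome 13 these shares were 29.2% and 2.08%. In the quartile of M15 regions with the fewest KTS-minus replicate 2 peaks nearby they were 33.3% and 3.76%.

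The edge of the rule is a matter of a few bases at some sites. The member closest to a missing replicate 1 peak lay on chromosome 3 from 116125585 to 116127492, with a gap of 5 bp to it. The next lay on chromosome 13 from 29033645 to 29035153, with a gap of 10 bp. For replicate 2 the smallest gap was 33 bp, on chromosome 2 from 126757648 to 126759241. Just outside the rule, M15 and replicate 1 peaks shared 14 bp in a region on chromosome 7 from 134338660 to 134340885. In a region on chromosome 4 from 136671966 to 136675467, M15 and replicate 2 peaks shared 30 bp. Peaks of a further list can also join such regions, so their place need not hang on these bases alone. At 21 of the 5331 M15 regions that held both KTS-minus libraries, 1 of those libraries met no M15 peak itself and was joined only through another list. Stricter definitions changed the picture more. A 50% reciprocal overlap was counted over M15 replicate 1 peaks matched in M15 replicate 2, not over merged regions. Of these 4790 peaks, 2434 lacked a match in 1 or both KTS-minus lists. With the stretches of highest signal in place of whole peaks, 1419 of 1869 M15 regions were members.

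Among the 5688 M15 regions, members were weaker by the median than regions present in both KTS-minus lists. Within the whole list of M15 replicate 2, which is far longer than that of replicate 1, the best peak of a member still had a median percentile of 88.8, against 93.9 for regions present in both. In the whole list of M15 replicate 1 these medians were 36.0 and 55.0. The best peak of a member had a median max signal of 29 in M15 replicate 1 where 1 KTS-minus list lacked it and 30 where both did, against 37 at the 5331 regions present in both. In M15 replicate 2 the medians were 12, 12 and 15. In percentiles among all M15 regions, the group lacking 1 list stood at 32.4 and 29.4 in M15 replicates 1 and 2, the group lacking both at 35.0 and 29.4, and the regions with both at 52.1 and 50.1. The medians of the 287 and the 70 were close to each other, and both were below that of the regions with both lists in each replicate. Of the 357, 104 (29.1%) lay above the 50th percentile of M15 regions in replicate 1 and 103 (28.9%) in replicate 2, against 50.2% and 54.4% of the regions present in both. Regions lacking only replicate 2 were the weakest, with a median max signal of 27 and 11 in the M15 lists, and those lacking only replicate 1 reached 31.5 and 12. Strong members existed in all classes: their highest max signals in M15 replicate 1 were 105, 69 and 203 for regions lacking only replicate 1, only replicate 2 and both.

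**Figure D1:**
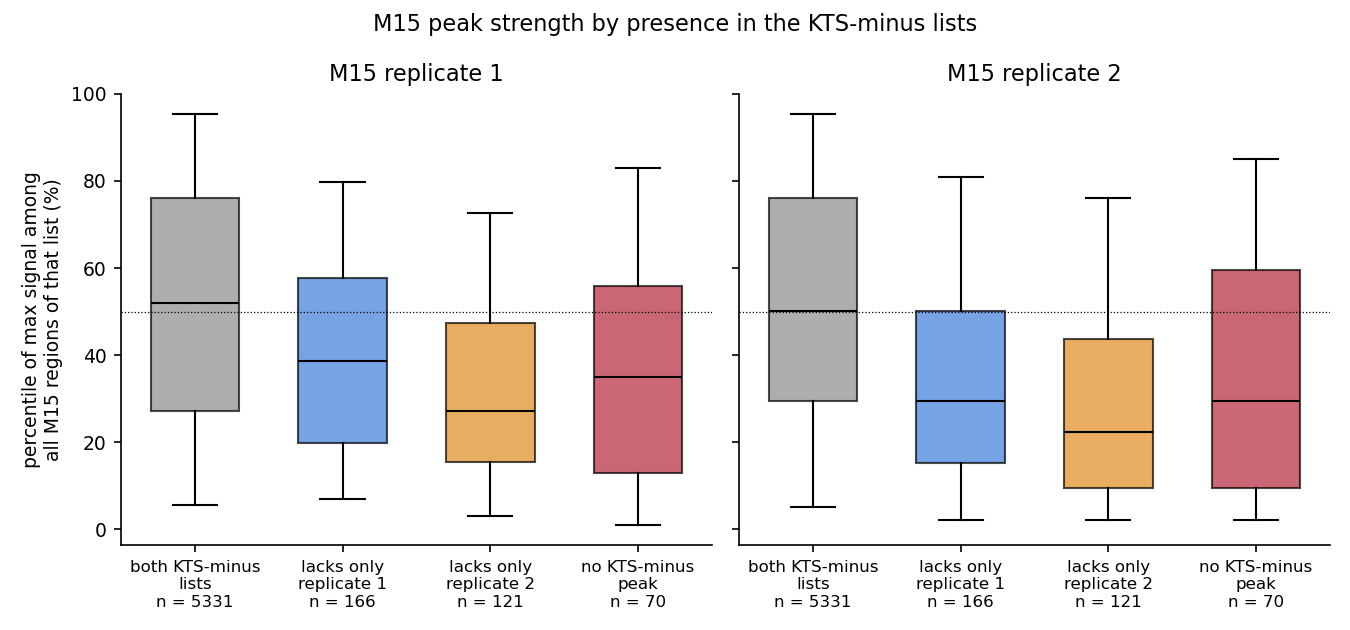
Percentile of max signal among all M15 regions (vertical axis, %) in each M15 replicate, by presence in the KTS-minus lists. Boxes span the quartiles with the median as a line and whiskers reach the 5th and 95th percentile. The 3 groups of members lie lower than the 5331 regions with both lists in each replicate, and all boxes overlap.

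The best M15 peak of a member was also narrower. Its median width was 1365 bp in replicate 1 and 1133 bp in replicate 2 where 1 list was missing, 1332 bp and 1179 bp where both were, and 1668 bp and 1544 bp at regions present in both. Summed over all M15 peaks of a region, the width had a median of 1365 bp in replicate 1 and 1163 bp in replicate 2 for regions lacking 1 list, and of 1363.5 bp and 1259.5 bp for those lacking both. Regions present in both had 1699 bp and 1901 bp. The merged region itself measured 1858 bp, 1681 bp and 3722 bp in these groups, but that width contains the KTS-minus peaks and so depends on the rule. The summed width and the number of M15 peaks depend on it too, since KTS-minus peaks can join several M15 peaks into 1 region. Without M15 replicate 1 the median merged width of regions lacking both was 940 bp, and without KTS-minus replicate 1 that of regions not lacking a list was 2411 bp. Of the members, 329 of 357 (92.2%) held exactly 1 peak in each M15 list, against 67.9% of the regions present in both. The M15 replicates placed their stretch of highest signal within 100 bp of each other at 183 members (51.3%) and at 57.2% of the regions present in both. The peaks of the M15 replicates overlapped each other directly in 99.7% of the members and in 99.6% of the regions present in both, so members did not differ here.

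The share of members fell from each quartile of M15 strength or width to the next. From the weakest to the strongest quartile of M15 regions by replicate 1 max signal, 9.72%, 7.64%, 5.64% and 1.87% lacked a KTS-minus peak. By replicate 2 the shares were 11.9%, 6.44%, 4.01% and 2.04%. By summed peak width in replicate 1 they were 10.6%, 6.90%, 5.21% and 2.39%, from the narrowest quartile to the widest. Summed width depends on the rule, since KTS-minus peaks can join several M15 peaks into 1 region. The differences by width, here and in the crossing below, can thus come in part from the rule. The width of the best single peak was not cut into quartiles. Strength and width in M15 replicate 1 were also crossed, each cut at its tertiles. Among the strongest tertile, 34 of 551 narrow regions (6.17%) were members, against 4 of 501 of middle width (0.80%) and 9 of 780 wide ones (1.15%). Among narrow regions the share was 12.7% in the weakest tertile and 10.9% in the middle one.

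The surroundings differed too. Within 50 kb on either side of a region, members lacking both lists had a median of 11 KTS-minus replicate 1 peaks and 9 replicate 2 peaks. Members lacking 1 list had 15 and 11, and regions present in both had 23 and 15. M15 peaks showed a like order, with 3.5, 4 and 7 replicate 2 peaks in that window. Members thus lay in sparser surroundings in 3 lists. In the quartile of M15 regions with the fewest replicate 1 peaks nearby (0 to 16), 14.7% were members, against 4.59%, 3.15% and 2.07% in the denser quartiles. Absence in one library followed the density of the other: replicate 1 was missing at 8.29% of regions in the sparsest quartile by replicate 2 peaks and at 0.94% in the densest. Strong sites in dense surroundings were almost never members. Of 658 regions in the upper tertile both by M15 replicate 1 signal and by replicate 2 density, 1 was (0.15%), against 109 of 766 (14.2%) in the lower tertile of both. Density around a site was measured in the same lists as the absence, and its part in the result was not tested.

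**Figure D2:**
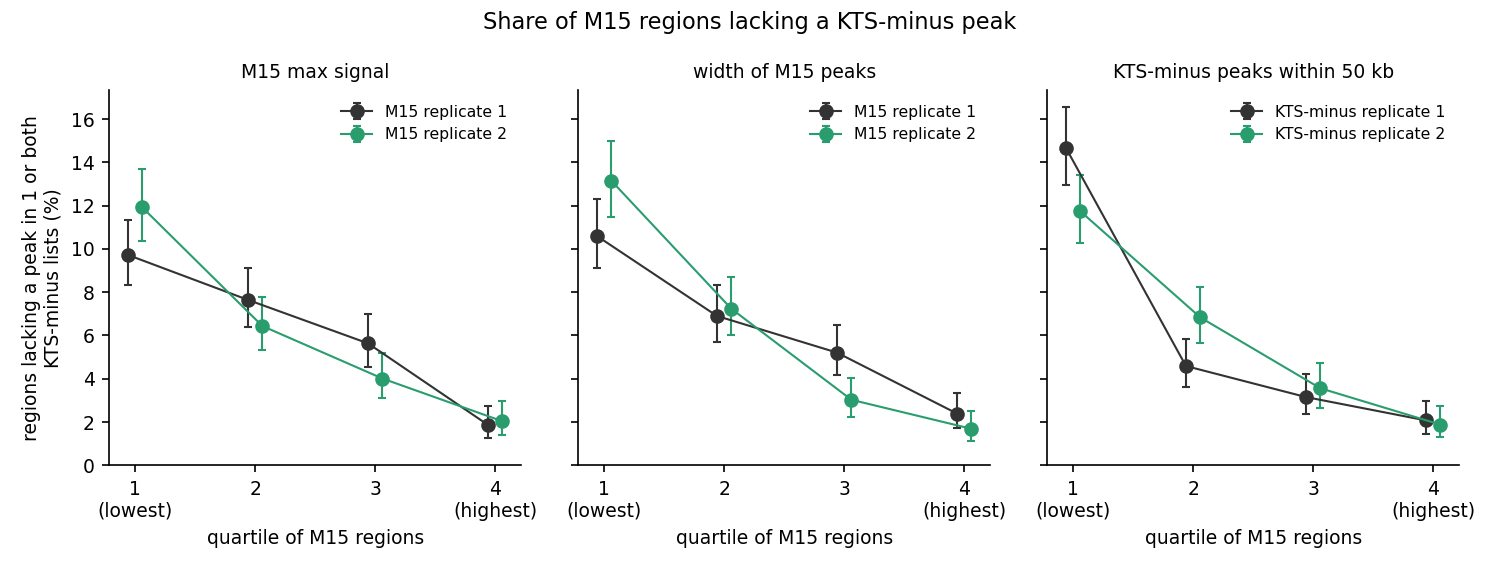
Share of M15 regions lacking a peak in 1 or both KTS-minus lists (vertical axis, %) by quartile of M15 max signal, of summed M15 peak width and of the number of KTS-minus peaks within 50 kb. Points are shares with 95% Wilson intervals, and tied values were kept together. Each of the 6 lines falls from the lowest to the highest quartile. Summed width depends in part on the rule that chose the members.

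Distances to the nearest KTS-minus peak must be read beside the density of the lists. Within 50 kb on either side, regions lacking only replicate 1 had a median of 13 replicate 1 peaks. Regions lacking only replicate 2 had a median of 11 replicate 2 peaks. Distances from comparable positions elsewhere were not measured, so nearness particular to the members cannot be read from these gaps. Where only replicate 1 was missing, the nearest replicate 1 peak was a median of 1719.5 bp away, and 63 of 166 regions (38.0%) had one within 1 kb. Where only replicate 2 was missing, the median was 2452 bp and 28 of 121 (23.1%) had one within 1 kb. At the 70 regions with no KTS-minus peak the medians were 1625.5 bp to replicate 1 and 3296.5 bp to replicate 2, with 24 and 14 regions within 1 kb. By the median, replicate 1 thus lay about as near to the regions lacking both as to those lacking it alone, but without the M15 replicate 2 condition the former median was 6267.5 bp. A minority was remote. A gap over 10 kb separated 37 of 236 regions (15.7%) from replicate 1 and 31 of 191 (16.2%) from replicate 2. In 7 of the 70 both gaps exceeded 10 kb: 2 were on chromosome 10, 2 on chromosome 13 and 1 each on chromosomes 1, 3 and 7. The neighbouring peak was ordinary for its list, with a median percentile of max signal of 56.9 in replicate 1 and 51.5 in replicate 2 beside regions lacking both.

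**Figure D3:**
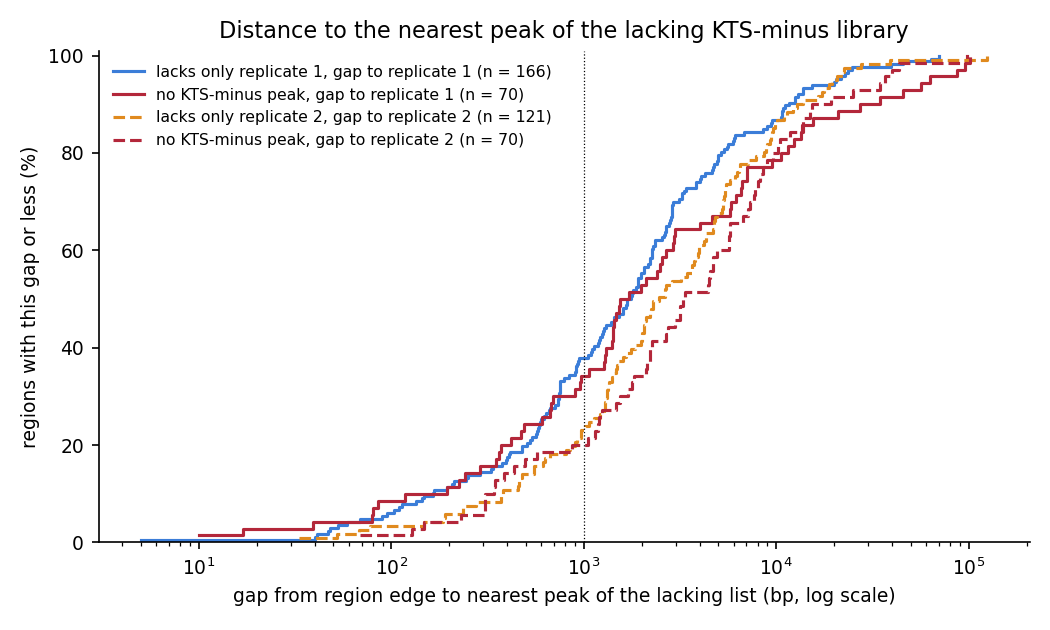
Cumulative share of members (vertical axis, %) by gap from the region's edge to the nearest peak of the missing KTS-minus list (horizontal axis, bp, log scale). The dotted line marks 1 kb, which 20.0% to 38.0% of the regions had reached in the 4 curves.

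Where one KTS-minus library had the site, its best peak was weaker by the median than at regions held by both. Replicate 2 peaks at the 166 regions lacking only replicate 1 had a median max signal of 28, or the 80.5th percentile of that list, against 37 and the 95.8th percentile at the 5331 regions. Replicate 1 peaks at the 121 regions lacking only replicate 2 had a median of 15, the 69.5th percentile, against 22 and the 95.2nd. The peak was below the 50th percentile of its list at 39 of the 166 regions (23.5%) and 39 of the 121 (32.2%), against 8.35% and 4.99%. A peak of that library covered the centre of the M15 replicate 1 stretch of highest signal at 143 of 166 regions (86.1%) and 99 of 121 (81.8%), against 95.5% and 95.7%. Regions held by both offered more KTS-minus sequence for these comparisons. Summed peak width there had a median of 1991 bp in replicate 2 and 3212 bp in replicate 1, against 1069.5 bp and 1414 bp at the 166 and the 121. The part of this in the differences was not tested.

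Chromosome 13 carried the largest share of absences. There 55 of 214 M15 regions (25.7%, 95% interval 20.3 to 31.9) were members, against 5.52% of the M15 regions on the other chromosomes. Chromosome 12 followed with 19 of 104 (18.3%), chromosome 7 with 25 of 212 (11.8%), chromosome 1 with 20 of 184 (10.9%) and chromosome 3 with 14 of 137 (10.2%). At the other end stood chromosome 19 with 1 of 302 (0.33%), chromosome X with 2 of 140 (1.43%), chromosome 15 with 7 of 386 (1.81%) and chromosome 6 with 8 of 398 (2.01%). Both libraries took part on chromosome 13: replicate 1 was missing at 20.6% of its M15 regions and replicate 2 at 11.7%. For replicate 1 the next share was 12.5%, on chromosome 12. For replicate 2 chromosome 12 was level with chromosome 13, at 11.5%. The chromosome held 30 of the 166 regions lacking only replicate 1, 11 of the 121 lacking only replicate 2 and 14 of the 70 lacking both. Its members were spread along the chromosome from 9092162 to 115251259. Single libraries moved the share: 12.1% with KTS-minus replicate 1 left out, against 3.76% over all chromosomes, and 70.8% with M15 replicate 1 left out, against 57.8%. In the second setting chromosome 5 was close behind with 69.7%. With the same libraries left out, chromosome 12 had 11.5% and 61.1% and chromosome 7 had 5.61% and 56.8%. Without KTS-minus replicate 2 chromosome 7 had 7.55%.

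Chromosomes with few KTS-minus peaks had more absences, and chromosome 13 lacked a peak more often than the chromosomes of like density named below. Over 20 chromosomes, whose values share the same libraries, the share lacking replicate 1 and the replicate 1 peaks per Mb had a Spearman's rho of -0.84, and rho was -0.68 for replicate 2. Replicate 1 listed 48.4 peaks per Mb on chromosome 13. Chromosomes 7, 3 and 1, with 44.0, 44.1 and 54.4, lacked replicate 1 at 7.55%, 7.30% and 8.70% of their M15 regions. Replicate 2 listed 64.9 peaks per Mb on chromosome 13. The nearest chromosomes by that density, 14 and 10, with 61.3 and 71.8, lacked replicate 2 at 1.11% and 4.17% of their M15 regions. M15 regions on chromosome 13 were slightly weak, with a median percentile of 46.2 in M15 replicate 1 and 43.6 in replicate 2. In each quartile by M15 replicate 1 signal its share was higher than elsewhere: 31.9% against 8.63% in the weakest, 29.4% against 6.84%, 28.8% against 4.73%, and 7.14% (3 of 42) against 1.70% in the strongest. In the sparsest quartile by replicate 1 peaks, 55 of 206 regions (26.7%) on chromosome 13 were members, against 12.8% on the others. In the sparsest quartile by replicate 2 peaks, 48 of 173 regions (27.7%) on chromosome 13 were members, against 9.79% on the others. In the next quartile by replicate 1 peaks, 0 of 7 regions on chromosome 13 were members, against 4.61%. By replicate 2 peaks, 7 of 35 (20.0%) were, against 6.51%. Density was not matched inside a quartile, and the part of density or strength in the chromosome 13 share was not tested.

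**Figure D4:**
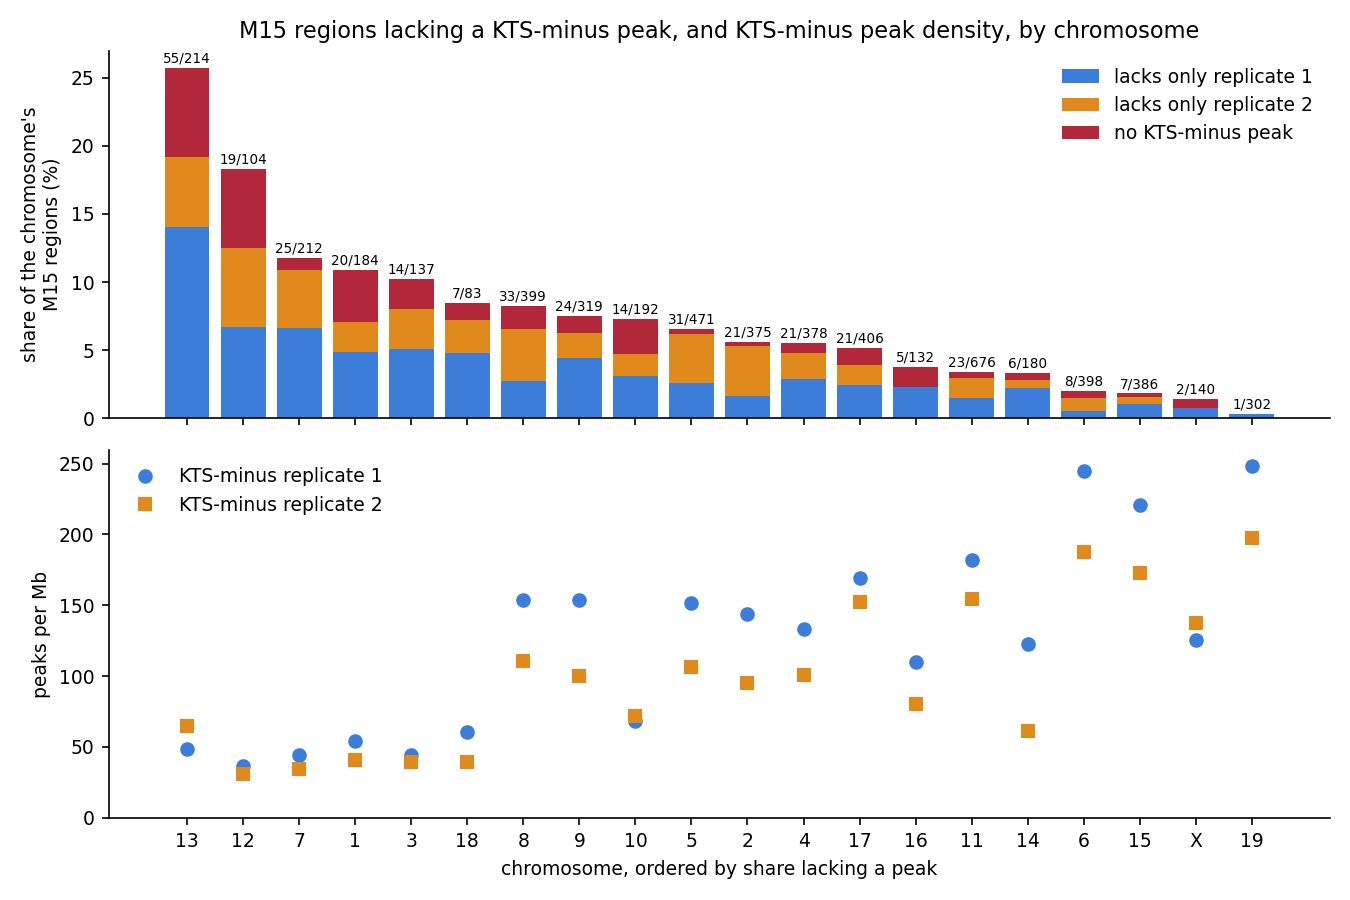
Upper panel, share of each chromosome's M15 regions that lack a KTS-minus peak (%), split by which replicate lacks it, with counts above the bars. Lower panel, KTS-minus peaks per Mb. Chromosome 13 stands highest at 25.7%, and its peak density of 48.4 and 64.9 per Mb is not the lowest.

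Some members stood alone among M15 regions that were kept, and others lay next to each other. Of the 357, 258 (72.3%) had no member as the next M15 region on either side. Members were 6.28% of M15 regions, so a kept neighbour was the common case, and the number alone under random scattering was not computed. In 11 runs of 3 or more neighbouring M15 regions that were all members, 49 of the 357 (13.7%) were found. The longest runs held 7 regions each. On chromosome 1, from 85227090 to 87503186, 4 regions lacked both lists and 3 lacked replicate 1. Their max signals were low in M15 replicate 1, between 10 and 21 against a median of 36 over all M15 regions. In replicate 2 they ran from 10 to 25, around the median of 15. On chromosome 10, from 126586086 to 127026294, 3 lacked both lists, 3 lacked replicate 1 and 1 lacked replicate 2. M15 peaks covered 55.8% and 49.7% of that segment in replicates 1 and 2. KTS-minus replicate 1 had a single peak there, covering 13.3%, and replicate 2 had 5 peaks covering 21.9%. Other runs were on chromosome 13 (3 runs), chromosome 12 (2 runs) and chromosomes 4, 5, 7 and 8 (1 run each).

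Of the members, 11 (3.08%) were 10 kb or wider as merged regions, against 395 (7.41%) of the regions present in both. Broad regions were thus less frequent among members, though merged width depends on the rule. Of the 11, 10 were in a run of 3 or more. Of these 11, 8 lay on chromosome 10 between 126465971 and 127026294, and they measured from 12494 bp to 70457 bp. On chromosome 1, 2 regions of 29824 bp and 14694 bp peaked at 96 and 58 in KTS-minus replicate 2, the 99.9th and 99.5th percentile of that list, while replicate 1 had no peak in them. The last, on chromosome 5 from 14920676 to 14932215, reached 75 in replicate 2 and was also missing from replicate 1. Broad members held by 1 KTS-minus list were thus among its strongest peaks: in all 7, the peak was above the 99th percentile. Broad regions present in both were not compared in this respect.

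The members with the best mean rank of max signal in the M15 lists show how different these sites were. Among those with no KTS-minus peak, the first was the 55343 bp stretch on chromosome 10 from 126465971, where M15 replicate 1 reached a max signal of 203 and replicate 2 one of 36. The nearest KTS-minus peaks lay 21013 bp away in replicate 1 and 7322 bp away in replicate 2, and both were strong, with a max signal of 84 and 64. The second was compact: 1569 bp on chromosome 8 from 129442583 to 129444151, with 62 and 30 in M15. Here KTS-minus peaks began 241 bp and 347 bp away and were weak, with a max signal of 11 and 12. The 2829 bp region on chromosome 4 from 136715179 to 136718007 (73 and 23 in M15) had gaps of 1275 bp and 231 bp. The region on chromosome 15 from 85864316 to 85865599 (60 and 25) had gaps of 689 bp and 1186 bp, and that on chromosome 6 from 91526056 to 91527747 (43 and 26) had gaps of 287 bp and 1139 bp. In the 4 compact regions a KTS-minus peak thus lay within 1 kb, and in the 2 broad ones on chromosome 10 none did.

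**Figure D5:**
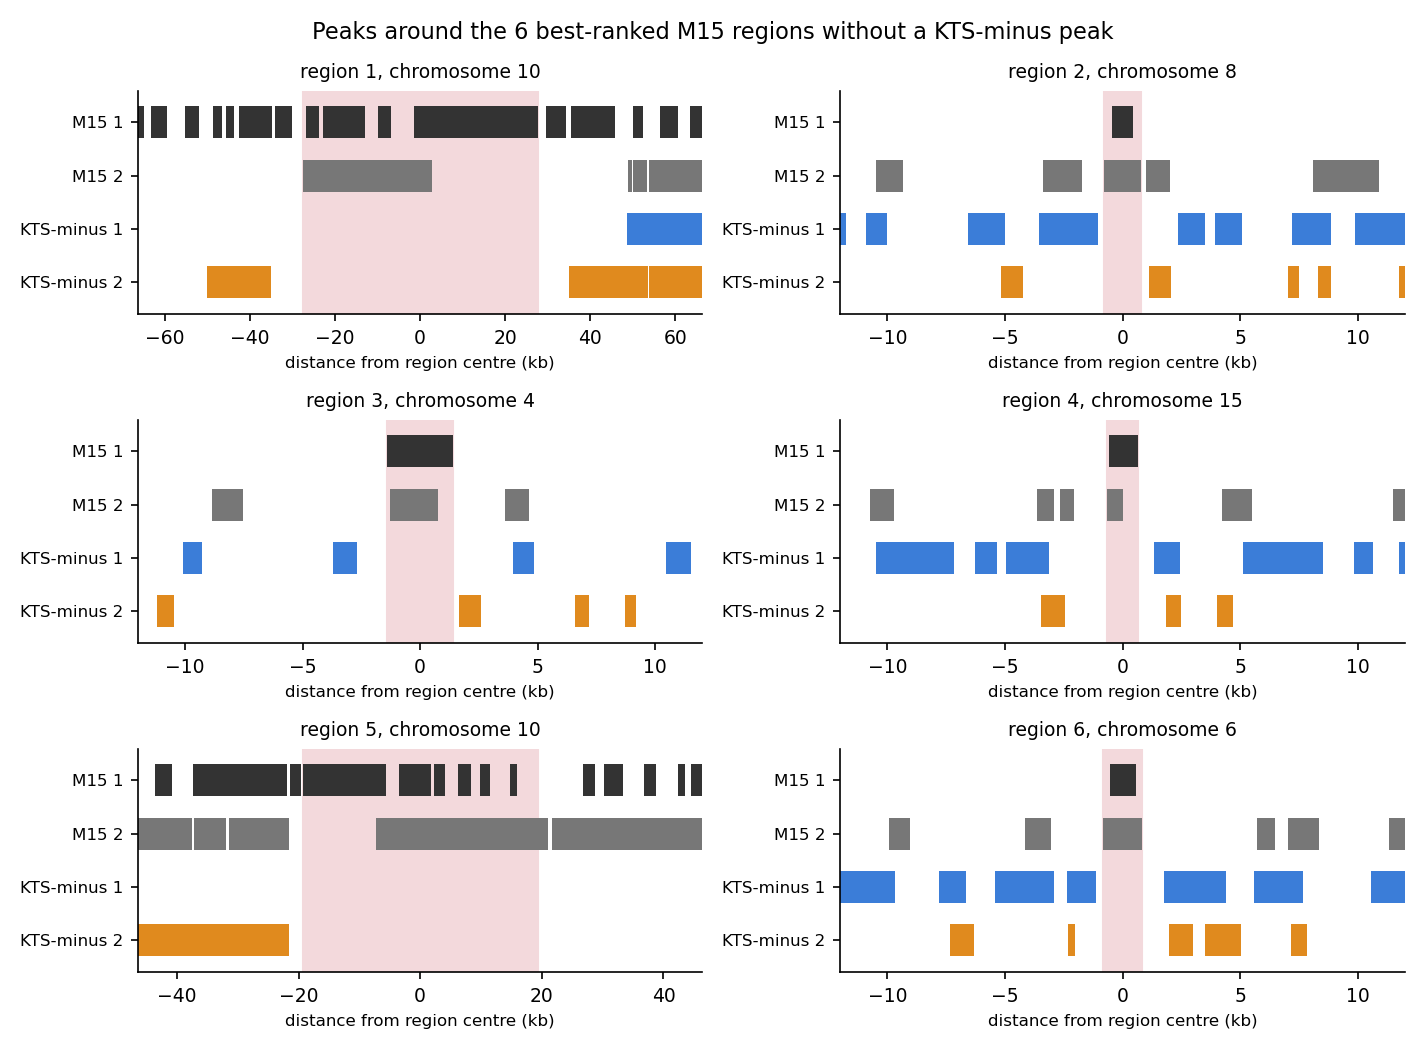
Peaks of the 4 lists (rows) around the 6 best-ranked M15 regions without a KTS-minus peak, by distance from the region's centre (kb). Each bar is a listed peak, without its height, and the shaded span is the merged region. KTS-minus peaks flank the 4 compact regions within 1 kb, whereas regions 1 and 5 on chromosome 10 have no replicate 1 peak within 21013 bp.

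The best-ranked region lacking only KTS-minus replicate 1 was strong in all the other lists. Lying on chromosome 1 from 174366317 to 174367848, it had M15 values of 105 and 37. KTS-minus replicate 2 had 99 there, the 99.9th percentile, while the nearest replicate 1 peak was 2278 bp away. The second, on chromosome 19 from 10844267 to 10845964, was the only member of that chromosome. It reached 79 and 29 in M15 and only 17 in replicate 2, the 28.6th percentile, and a replicate 1 peak stopped 47 bp short of it. The region on chromosome 9 from 43046803 to 43049699 (69 and 30 in M15) had 27 in replicate 2 and a gap of 618 bp. The region on chromosome 18 from 42670517 to 42672055 (68 and 22) had 43 in replicate 2 and a gap of 9421 bp. The other 2 were broad stretches of chromosome 10, from 126586086 to 126629084 and from 126872248 to 126920041, with 102 and 69 in replicate 2.

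Among the 6 best-ranked regions lacking only KTS-minus replicate 2, none was as strong in M15 or stood as high in the KTS-minus list that held it. The first, on chromosome 8 from 123839286 to 123842170 (65 and 24 in M15), had 19 in KTS-minus replicate 1, with a replicate 2 peak 236 bp away. On chromosome 2, the regions from 24191888 to 24193121 (51 and 27 in M15) and from 125104166 to 125106757 (65 and 21) had 12 and 13 in replicate 1, near the middle of that list. Their gaps to replicate 2 were 1296 bp and 8893 bp. The region on chromosome 14 from 45754685 to 45756310 (51 and 24) had 11 in replicate 1 and a gap of 2003 bp. The region on chromosome 5 from 143026233 to 143028350 (49 and 20) had 12 and a gap of 27608 bp. The last, on chromosome 7 from 146457748 to 146460806 (46 and 21), had the strongest replicate 1 peak of the 6, at 26 and the 98.3rd percentile, and its gap was 5746 bp. Outside the 6, stronger replicate 1 peaks occurred in this class. The regions on chromosome 5 from 15207572 to 15214337 and on chromosome 10 from 126801913 to 126865999 reached 82 and 72, each at percentile 99.98. Their M15 values were 40 and 10, and 41 and 20.

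The most remote members were not among the best ranked in M15. The largest gap of all was 125030 bp, from the region on chromosome 7 from 104727540 to 104731009 to replicate 2, although replicate 1 had a max signal of 27 there, its 98.6th percentile. In M15 that region reached 35 and 12. The largest gap to replicate 1 was 97728 bp, from a region without any KTS-minus peak on chromosome 8 from 19900732 to 19902559 (26 and 25 in M15), with replicate 2 at 7633 bp. For replicate 2 the largest gap among regions lacking both was 102071 bp, on chromosome 10 from 126757683 to 126770176. Among regions lacking only replicate 1 the largest was 69715 bp, on chromosome 1 from 85294828 to 85309521, inside the run of 7 described above.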

How the data were processed

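WT1 CUT&RUN peak lists of 4 libraries were used: 2 of M15 cells and 2 of the KTS-minus line, grouped by sample title. SEACR 1.3, bedtools 2.23.0, SAMtools 1.3, Picard 2.5.0, Bowtie2 2.2.6 and FastQC 0.11.8 are named, with mm9 as the build, in the submitters' processing notes. The deposited signal values (total and max coverage signal of a peak) were made by the authors and are whole numbers. Lists were made per library. How coverage was scaled, and the control, threshold and any spike-in, is not given in the sources used here. For this reason, values were only ranked inside a list.

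Peaks sharing at least 1 bp were merged. A region's value in a list is that of its best peak. Gaps run from the region's edge to the nearest peak, and nearby peaks are those with their middle within 50 kb. Quartiles kept ties together. Peaks per Mb use the span from the first to the last peak of a chromosome. Coordinates are counted from 1. Named regions are the 6 of each class with the best mean M15 rank of max signal, plus those with extreme gaps. Members, classes and alternatives were chosen with earlier results of these data known, and density, runs and broad members were examined, and the runs and broad regions named, after their values were seen. No test over regions was run. Python 3.11.15, numpy 2.4.6, pandas 2.3.3, scipy 1.17.1 and matplotlib 3.10.9 were used. Merging and classes were tested on simulated data with sites far apart. Regions with several peaks of a list and broad peaks were not simulated.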

Additional observations from a re-analysis of the deposited data

How the results depend on the processing

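The counts depend strongly on what counts as overlap and on which libraries are required. With overlap asked between M15 and KTS-minus peaks themselves, with KTS-minus lists of equal length, and without chromosome 10 or 13 (the last added after seeing the data), the 4 counts stayed within a factor of 1.5. When KTS-minus peaks up to 1 kb away also counted, 40 regions lacked both lists and 110 lacked only replicate 1. With the peaks' stretches of highest signal in place of whole peaks, 1419 of 1869 M15 regions were members (769 lacking both, 411 only replicate 1, 239 only replicate 2). A 50% reciprocal overlap gave 2434 of 4790 M15 replicate 1 peaks matched in M15 replicate 2 (490, 1515 and 429). The 50% of each list with the highest total signal gave 127 of 2948 (24, 65 and 38). Leaving out 1 library changed the total of regions too. From 223 of 5931 (3.76%) to 29814 of 51612 (57.8%) lacked 1 or both lists. From 186 of 6007 (3.10%) to 14229 of 51612 (27.6%) lacked all KTS-minus lists used. Only replicate 1 was lacking at 200 of 6007 (3.33%) to 4704 of 51612 (9.11%), and only replicate 2 at 146 of 6007 (2.43%) to 10881 of 51612 (21.1%). The highest values came without M15 replicate 1, when every region with an M15 replicate 2 peak counted.

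Ranked by total signal, the median M15 percentile was 19.2 for regions lacking both lists and 23.3 for those lacking 1, and regions in both lists stayed above these groups under each setting tried. The part covered in both M15 lists had a median width of 901.5 bp, 971 bp and 1298 bp where both, 1 and no KTS-minus list was missing, and without the runs of 3 or more, added after seeing the data, regions lacking both measured 1548 bp. Leaving out 1 library gave median widths of 940 to 1791 bp, 1594 to 1696 bp and 2411 to 3439 bp. From the middle of the M15 replicate 1 peak, the median distance was 2579 bp to replicate 1 and 3662 bp to replicate 2 where only that list was missing, and 2786 bp to replicate 1 and 5057 bp to replicate 2 where both were. To replicate 1 from regions lacking both, leaving out an M15 library gave 1451 to 6267.5 bp. The share of members, leaving out 1 library, was 12.1% to 70.8% on chromosome 13, 11.5% to 61.1% on chromosome 12 and 5.61% to 56.8% on chromosome 7. Chromosome 13 ranked first in all 4 of these settings, but without M15 replicate 1 chromosome 5 was close behind at 69.7%, beside 57.8% over all chromosomes. No paired analysis was possible because no result comes from a fitted test. Read depth and the lists' thresholds are unknown, and no precision per peak can be given. The cause of the moved values was not tested.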
